A study of Mus musculus with 2 samples.

Results

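The genes described here encode 9 calcium-binding proteins of neurons: Calb1, Calb2, Pvalb, Calm2, Calm3, Ncald, Hpca, Ncs1 and Vsnl1. They were chosen by name, and each matched 1 row among the 43346 rows with an Ensembl gene identifier. The tissue was whole midbrain of healthy mice of strain B6NTac;B6NCrl/Lap on postnatal day 0, with males and females pooled. Per the labels, the study has 1 group of 2 libraries from independent isolates; replicate 1 is a pool of 15 animals, and the size of the pool behind replicate 2 is not given. With 1 group there was no contrast to test, so the values below describe how high each gene stood, how the genes ranked, which transcripts carried them and how closely the isolates matched.

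All of these proteins bind calcium through EF hands, helix-loop-helix units whose loop holds the ion. Calmodulin is a sensor that changes shape on binding calcium and then switches on kinases, a phosphatase, cyclases and channels; it is made from several genes with the same protein product. The neuronal calcium sensors are a related family. Many of them carry a fatty acid on the first glycine, and some move to membranes when calcium rises. Calbindin, calretinin and parvalbumin act mainly as cytosolic buffers and are classic markers of particular neuron types, among them Purkinje cells for calbindin and fast-spiking interneurons for parvalbumin.

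Replicate 1 held 46685706 estimated counts and replicate 2 held 72779229, so counting error is larger in replicate 1. All 13 midbrain identity genes listed and all 8 neuron markers reached 1 TPM in both libraries, against 53.8% of protein-coding genes. Of 12 forebrain genes listed, 5 did so too, led by Lhx2 at 16.51 and 16.52 TPM. TPM is a count divided by transcript length and scaled to the same sum in each library, so it can be compared between genes within a library. Over genes at 1 TPM or more in both libraries, the median log2 ratio of TPM, replicate 2 over replicate 1, was -0.26. The sum that TPM is scaled to covers all rows, and most of it lay outside protein-coding genes in both libraries. A chi-square test over 18554 genes gave 51.4 per degree of freedom, so the libraries were not 1 library deposited again.

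Calm3 and Calm2, which encode calmodulin, stood highest, the neuronal calcium sensors came next, and the buffers were lowest. Of the 9 genes, 8 reached 1 TPM in both libraries, against 53.8% of 21474 protein-coding genes and 27.7% of all 43346 genes, and 7 reached 10 TPM in both, against 18.4%. The exception at 1 TPM was Pvalb, and Calb1 stood between these limits. The median of the 9 mean levels was 43.3 TPM, beside 7.32 TPM over the protein-coding genes that reached 1 TPM in both libraries. Together the 9 genes took 0.258% of all counts in replicate 1 and 0.276% in replicate 2. All 9 held the same rank in both libraries.

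**Figure D1:**
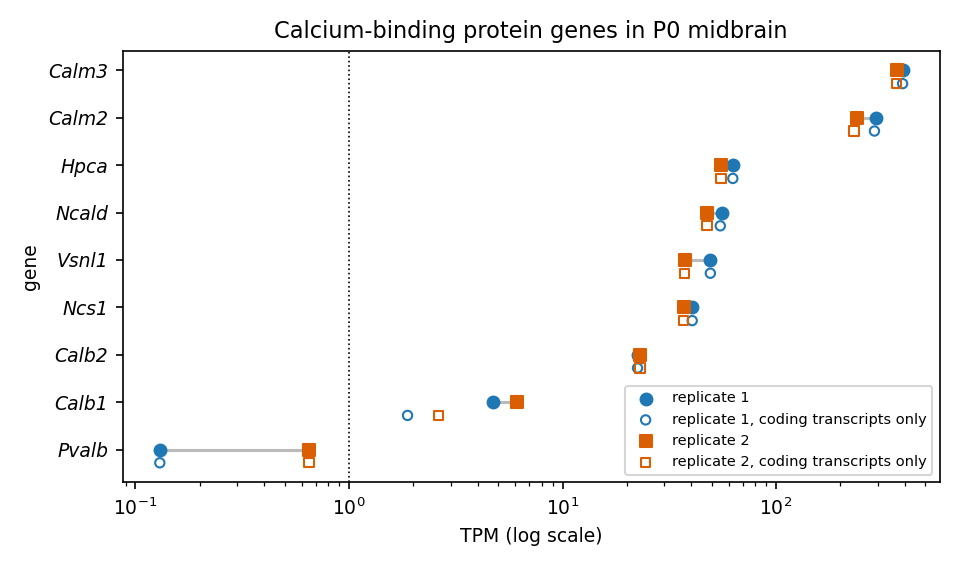
Level of each gene in TPM (log axis) in replicate 1 (circles) and replicate 2 (squares); open symbols sum only transcripts annotated as protein-coding, and the dotted line marks 1 TPM. Calm3 and Calm2 lie above 200 TPM, Hpca to Ncs1 between 36.99 and 62.74, and Calb1 drops to 1.88 and 2.62 TPM on coding transcripts.

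Calm2 and Calm3 each encode calmodulin. Calm3 lies on chromosome 7 (16915379 to 16924114, minus strand, mm10) and Calm2 on chromosome 17 (87433412 to 87446935, minus strand). The coding regions of their leading transcripts, 447 bases each, translate to the same 149 residues, yet Calm2 and Calm3 share only 369 of the 447 bases (82.6%). The stretch of 36 bases that encodes the first calcium-binding loop, from coding base 61, shows how the genes differ and so how reads can be told apart. Capitals mark bases at which the genes differ.
Calm3, chr7:16917667-16917702, minus strand, mm10: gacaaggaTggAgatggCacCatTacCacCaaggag
Calm2, chr17:87435873-87435908, minus strand, mm10: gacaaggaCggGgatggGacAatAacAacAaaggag
All 7 marked positions are the last base of a codon.

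Stretches of read length from the leading transcripts were looked up in all other genes of GENCODE M21. Of 1105 such stretches in Calm2-201, 10 occurred elsewhere, in the processed pseudogene Gm7308, which held 3 counts in replicate 1 and 1 in replicate 2; of 2190 in Calm3-201, 2 occurred elsewhere, in Gm5881, which matched no row. None of the stretches of the leading coding transcripts of the other 7 genes occurred in another gene.

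Calm3 was the highest of the genes in both libraries. It stood at 391 TPM in replicate 1 and 366 in replicate 2 (379 ± 17.6, SD, n = 2), on 60309 and 103786 counts. Among protein-coding genes it ranked 37 in replicate 1 and 40 in replicate 2. Calm2 stood at 293 and 239 TPM (266 ± 38.0, SD, n = 2), on 20627 and 30885 counts, with ranks of 58 and 66. The values of these genes did not overlap: Calm3 was 1.34 times as high as Calm2 in replicate 1 and 1.53 times in replicate 2, short of the 2-fold set as the limit for calling a pair.

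Calm3 had more counts than Calm2 by a wider margin than its TPM shows, since its leading transcript is longer. Calm3-201 has 2290 bases, of which 1569 follow the stop codon, and Calm2-201 has 1205, of which 615 follow it. Nearly all of either gene was assigned to that single transcript: Calm3-201 carried 99.95% and 99.22% of Calm3, and Calm2-201 carried 98.75% and 96.99% of Calm2. The rest of Calm2 lay on its retained-intron transcripts Calm2-202 and Calm2-203, at 1.47 and 2.18 TPM in replicate 1 and 2.93 and 4.26 in replicate 2.

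The 4 neuronal calcium sensors among these genes, Hpca, Ncald, Vsnl1 and Ncs1, stood within a narrow band. Their coding regions open alike, with a glycine codon right after the start codon, the residue that takes the fatty acid. The lines give the first 36 coding bases, with that codon in capitals.
Hpca, chr4:129118706-129118741, minus strand, mm10: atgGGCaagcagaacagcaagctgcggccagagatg
Ncald, chr15:37397399-37397434, minus strand, mm10: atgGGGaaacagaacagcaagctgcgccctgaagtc
Vsnl1, chr12:11386941-11386976, minus strand, mm10: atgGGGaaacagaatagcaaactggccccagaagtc
Ncs1, chr2:31246179-31246214, plus strand, mm10: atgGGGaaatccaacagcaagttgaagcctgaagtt
Translated from the same transcripts, Hpca and Ncald were identical at 170 of 193 aligned positions (88.1%), Vsnl1 matched them at 66.7% and 67.7%, and Ncs1 matched the other three at 56.8% to 58.0%. Each of the 4 held 3 matches to the PROSITE signature of a calcium-binding EF-hand loop, against 4 in calmodulin. Identity of any of them to calmodulin was 20.1% to 22.9%.

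Hpca, which encodes hippocalcin, a sensor known from hippocampal neurons, led this group. It stood at 62.7 TPM in replicate 1 and 55.2 in replicate 2 (58.9 ± 5.37, SD, n = 2), on 4493 and 8510 counts (chromosome 4, 129111570 to 129122036, minus strand), and ranked 496 among protein-coding genes in both libraries. Ncald, which encodes neurocalcin delta, stood at 55.7 and 47.5 TPM (51.6 ± 5.78, SD, n = 2) on 12498 and 20127 counts (chromosome 15, 37366175 to 37792570, minus strand). The values of Hpca and Ncald overlapped between the libraries, although Hpca was the higher in each.

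Vsnl1, which encodes visinin-like protein 1, stood at 49.2 and 37.3 TPM (43.3 ± 8.41, SD, n = 2) on 6245 and 8762 counts (chromosome 12, 11325242 to 11436613, minus strand). Ncs1, which encodes neuronal calcium sensor 1, the family member present from yeast to mammals, stood at 40.5 and 37.0 TPM (38.7 ± 2.47, SD, n = 2) on 13576 and 22949 counts (chromosome 2, 31245823 to 31295989, plus strand). Neighbours in this order overlapped, Ncald with Vsnl1 and Vsnl1 with Ncs1; in replicate 2 Vsnl1 was 1.01 times as high as Ncs1. Ncs1 had the most counts of the 4 and the lowest TPM, which divides by length: its transcript has 4653 bases in the files and that of Vsnl1 1934.

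Vsnl1 has only 1 transcript in the files, so its assignment to that form was fixed by the annotation. Ncs1, with 2 annotated transcripts, was assigned whole to 1 of them. Hpca, with 9, and Ncald, with 12, were split. All annotated forms of Hpca in the files are coding, led by Hpca-201 at 54.76% in replicate 1 and 51.9% in replicate 2 and by Hpca-205 at 22.08% and 23.25%. A further part moved between annotated forms: Hpca-208 held 15.95% in replicate 1 and 0% in replicate 2, and Hpca-209 held 0% and 15.18%. Ncald was led by Ncald-203 at 48.62% and 51.03%, followed by Ncald-201 at 29.8% and 21.01%. For Hpca-208 and Hpca-209, the deposited upper bounds in the libraries listing them at 0% were 0.981 and 1.77 TPM. The length used for Hpca followed the split, at 1214 bases in replicate 1 and 1368 in replicate 2, so its TPM moved with it. Tmem54, whose exons overlap those of Hpca on the opposite strand, held 0 and 20 counts.

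**Figure D2:**
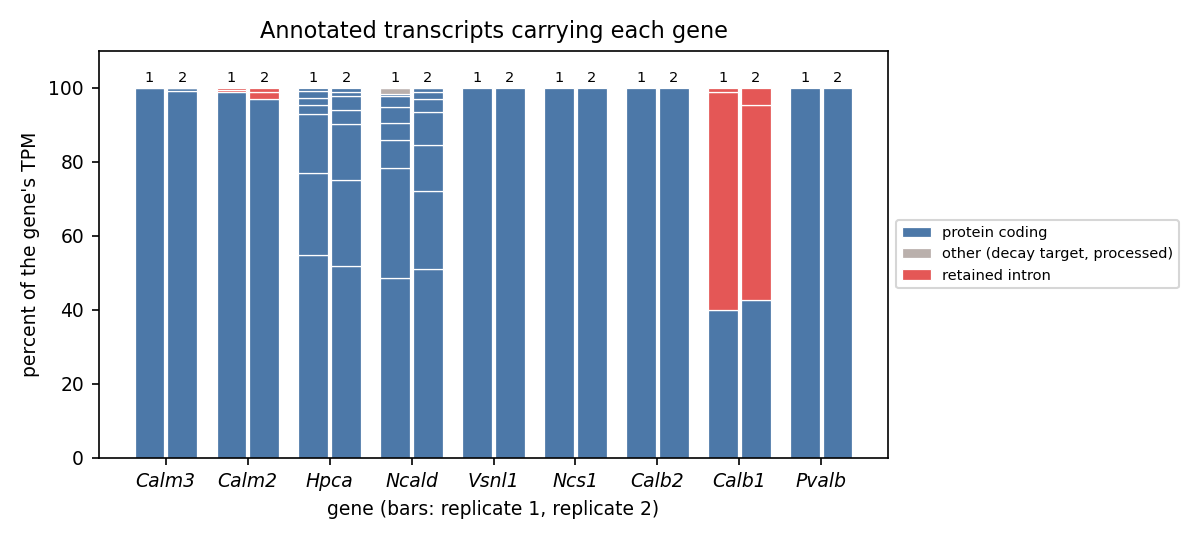
Percent of each gene's TPM on each annotated transcript in replicate 1 and replicate 2, with white lines between transcripts and colours for the annotated type. Hpca and Ncald are split over several coding transcripts, and Calb1 is the gene with most of its TPM on retained-intron transcripts (58.84% and 52.53% on Calb1-202).

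The 4 sensors took 76.9% of the TPM of their whole family of 13 genes in replicate 1 and 74.7% in replicate 2. Of that family, 10 reached 1 TPM in both libraries. Below the 4 came Kcnip1, a potassium channel subunit of the same fold, at 21.7 and 17.2 TPM, then Hpcal1 at 15.3 and 16.5 and Hpcal4 at 11.4 and 11.9. Kcnip3 stood at 5.25 and 6.08 TPM, Kcnip4 at 5.57 and 4.35, and Kcnip2 at 2.93 and 3.89. The retinal members were near zero: Rcvrn, the photoreceptor gene recoverin, had 2 counts and 0, Guca1a 1 and 0, and Guca1b 12 and 0.

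The CaBP and calmodulin-like genes were far below Calm3 and Calm2. Of 12 genes reported from the calmodulin and CaBP group, 5 reached 1 TPM in both libraries. Caln1, which encodes calneuron, stood at 12.7 and 9.44 TPM, Cabp1 at 6.27 and 2.58 and Cabp7 at 2.79 and 2.89. Calml4 stood at 0.690 and 0.590 TPM. Cabp5 had 2 counts and 0, Calml3 0 and 6, and Calm4, a calmodulin-like gene of skin, 0 and 62; Cabp2, Cabp4 and Calm5 had none in either library, where 0 counts allow up to 0.0643 CPM in replicate 1 and 0.0412 in replicate 2 by counting error alone.

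**Figure D3:**
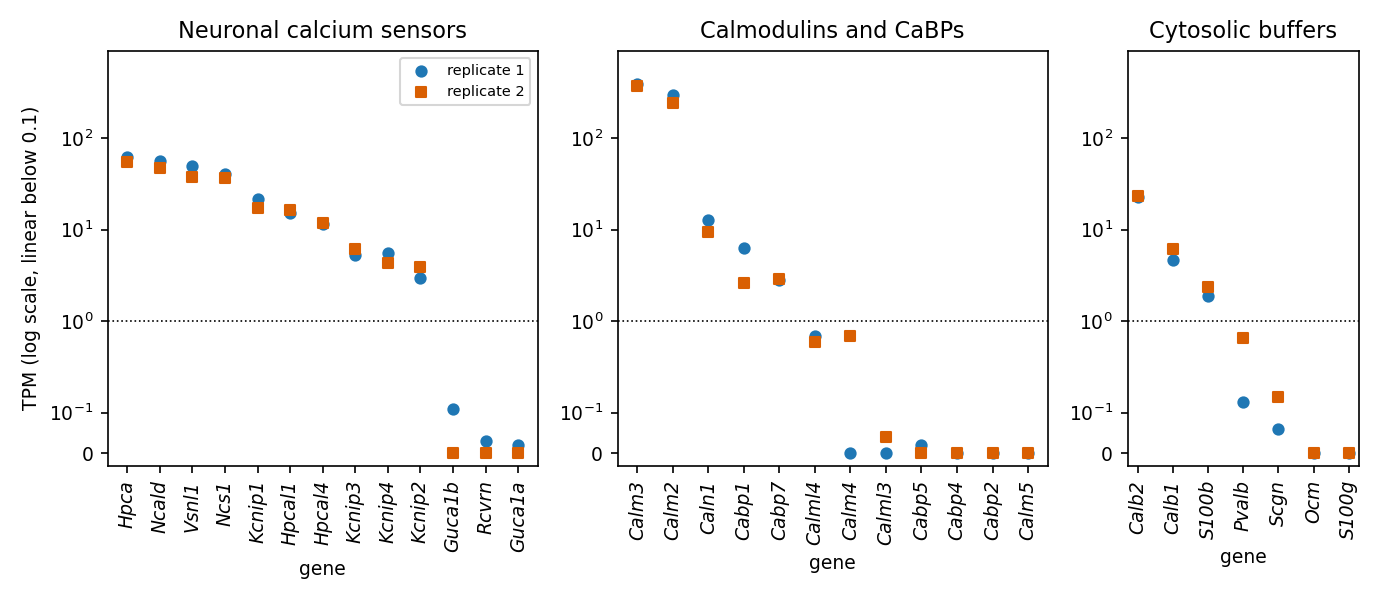
TPM (log axis, linear below 0.1) of each gene on 3 lists, the neuronal calcium sensors, the calmodulins with the CaBPs, and the cytosolic buffers, in replicate 1 (circles) and replicate 2 (squares); the dotted line marks 1 TPM. Calm3 and Calm2 stand highest, the sensors fall stepwise from Hpca to Kcnip2, and Pvalb, Scgn, Ocm and S100g lie below 1 TPM in both libraries.

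Among the buffers, calretinin was the most abundant transcript, calbindin was lower and parvalbumin was below 1 TPM in both libraries. Calb2, which encodes calretinin, stood at 22.5 TPM in replicate 1 and 23.0 in replicate 2 (22.7 ± 0.403, SD, n = 2), on 1980 and 3755 counts (chromosome 8, 110137502 to 110168210, minus strand). Its whole level lay on Calb2-201, the only form of Calb2 in the files. Ncs1, its neighbour above, was 1.80 and 1.61 times as high, without overlap. Calb2 was the lowest of the 7 genes at 10 TPM or more.

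Calb1, which encodes calbindin, stood at 4.71 and 6.13 TPM (5.42 ± 1.00, SD, n = 2) on 660 and 1676 counts (chromosome 4, 15881264 to 15908064, plus strand). Calb2 exceeded it 4.77-fold in replicate 1 and 3.76-fold in replicate 2. The Calb1 and Calb2 proteins were identical at 158 of 272 aligned positions (58.1%), the closest pair among the buffers, and held 4 and 5 matches to the EF-hand signature, against 2 in the Pvalb product.

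Most of the TPM of Calb1 was not assigned to its coding transcript. The retained-intron transcript Calb1-202, of 701 bases, stood at 2.77 TPM in replicate 1 and 3.22 in replicate 2, on 89.4 and 192 counts. The coding Calb1-201, of 4222 bases and 11 exons, stood at 1.88 and 2.62 TPM on 569 and 1465 counts. By counts the coding form led, so the order of the forms depends on dividing by length. The deposited credibility bounds, whose level is not stated, overlapped between the forms in both libraries. They were 1.95 to 3.58 TPM for Calb1-202 and 1.70 to 2.03 for Calb1-201 in replicate 1. In replicate 2 they were 2.55 to 3.94 and 2.46 to 2.75. A retained-intron form led in both libraries in 1.16% of 11550 protein-coding genes that reached 1 TPM in both. On the coding form alone, Calb1 stood at 2.25 ± 0.523 TPM (SD, n = 2), and Calb2 exceeded it 11.9-fold and 8.79-fold.

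Calb1-202 follows exons 1 to 5 of Calb1-201 and keeps intron 4, of 104 bases, and the first 92 bases of intron 5. These make 196 of its 701 bases, and reads that touch them are those that separate it from the coding form. Reads of RNA not yet spliced can touch the same bases and cannot be told apart there from reads of Calb1-202. The lines show both exon-intron borders, with intronic bases in capitals.
Exon 4 into intron 4, chr4:15895495-15895554, plus strand, mm10: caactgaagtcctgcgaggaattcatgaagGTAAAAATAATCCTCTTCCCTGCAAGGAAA
Exon 5 into intron 5, chr4:15895656-15895715, plus strand, mm10: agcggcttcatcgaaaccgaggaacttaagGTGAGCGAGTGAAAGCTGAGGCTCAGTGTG
In the other 8 of the 9 genes the leading form was coding in both libraries. For Vsnl1, Calb2, Hpca and Pvalb this was fixed, since the files hold only coding forms of them.

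Pvalb, which encodes parvalbumin, had 7 counts in replicate 1 and 62 in replicate 2 (chromosome 15, 78191114 to 78206400, minus strand). Its level was 0.130 and 0.650 TPM. All of its counts went to Pvalb-201 in replicate 1 and to Pvalb-202 in replicate 2, forms of 977 and 953 bases, so at this depth the form used could not be told. The leading form differed between the libraries in 12.5% of the 11550 protein-coding genes named above. The other genes of the buffer list were low as well: S100b stood at 1.90 and 2.37 TPM, Scgn, which encodes secretagogin, had 5 and 24 counts, and Ocm and S100g had none.

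Of the 36 pairs that the 9 genes form, 27 were 2-fold apart or more, with the same gene higher in each library, as log2 ratios of TPM + 0.1. The 9 pairs that did not were Calm3 with Calm2, the 6 pairs within the sensors, and Calb2 with Vsnl1 and with Ncs1. Vsnl1 was 2.19 times as high as Calb2 in replicate 1 and 1.62 times in replicate 2. Calm2 over Hpca, the step between calmodulin and the sensors, was 4.66-fold and 4.33-fold. Hpca over Calb1 was 13.3-fold and 9.00-fold.

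Between the isolates, 8 of the 9 genes lay within 2-fold and Pvalb did not. These differences were taken as log2 ratios of replicate 2 over replicate 1 on counts scaled by the trimmed mean of M values (TMM). Over 18554 genes whose counts summed to 10 or more, 17% passed 2-fold, 9.32% higher in replicate 2 and 7.7% higher in replicate 1; on TPM the balance turned, with 37.7% of the genes past 2-fold higher in replicate 2 against 54.7% on scaled counts. Among genes whose counts summed to 1000 or more, which holds for all but Pvalb here, 0.622% passed. The median size of the log2 ratio was 0.18 over the 9 genes, 0.18 over those well counted genes and 0.28 over all genes tested. With 1 library on each side there is no test of these differences.

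The genes at high counts were close. The log2 ratio was 0.18 for Calm3, -0.02 for Calm2, 0.32 for Hpca, 0.08 for Ncald, -0.12 for Vsnl1, 0.15 for Ncs1 and 0.32 for Calb2. Calb1 had the largest ratio among the 8, at 0.74, higher in replicate 2. On TPM + 0.1, without scaling between the libraries, the direction turned for Calm3 (-0.09), Hpca (-0.19), Ncald (-0.23) and Ncs1 (-0.13). On that scale Vsnl1, at -0.40, moved further than Calb1, at 0.37. The direction on TPM also depended on which genes share the sum. Rescaled over protein-coding genes alone, Calm3 stood at 1751 and 1854 TPM and Ncs1 at 181.1 and 187.1, both higher in replicate 2. Hpca, at 280.7 and 278.9, and Ncald, at 249.1 and 240.2, stayed lower in replicate 2. Pvalb had a ratio of 2.48 with a prior count, and 2.57 without one, with a 95% interval of 1.44 to 3.94 that covers counting error only. In genes of such low counts, 10 to 99 in all, 63.7% of 3655 passed 2-fold.

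**Figure D4:**
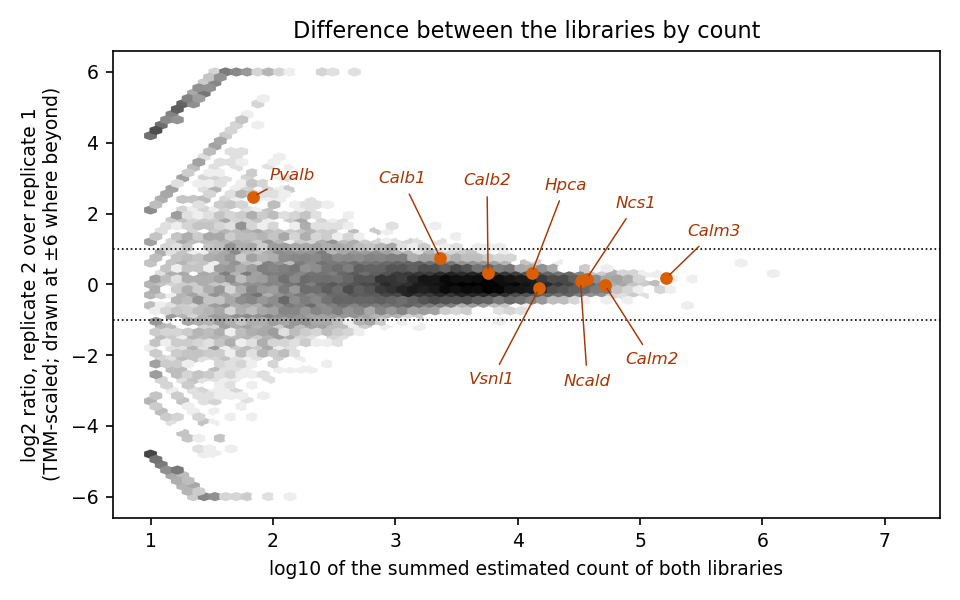
Log2 ratio of replicate 2 over replicate 1 (TMM-scaled counts) against the log10 of the summed count for 18554 genes (grey, darker where more genes fall), with the 9 genes in orange and dotted lines at 2-fold. Pvalb, on 69 counts, is the gene outside the lines; Calb1 is the next highest at 0.74.

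On TMM-scaled counts all of the 9 genes but Calm2 and Vsnl1 were higher in replicate 2, and only Pvalb passed 2-fold. Some markers of neighbouring tissues were higher in replicate 2 as well. The counts of these lists stand beside 9.32% of all 18554 genes over 2-fold higher in replicate 2. Among genes with 10 to 99 counts in all, 63.7% passed 2-fold in either direction. Markers in that range include Gabra6 of the granule list with 0 and 25 counts, Hoxb8 with 0 and 51, and Atp2a1 of the muscle list with 8 and 29. Of 5 Purkinje cell genes, 3 were over 2-fold higher in replicate 2 and none in replicate 1: Pcp2 stood at 2.22 and 6.08 TPM, Car8 at 2.92 and 5.79, and Skor2 at 0.320 and 1.32, while Lhx5 stood at 6.65 and 5.10 and Rora at 6.41 and 5.17. Their summed level was 18.5 TPM in replicate 1 and 23.5 in replicate 2. Of 5 granule lineage genes, 3 were over 2-fold higher in replicate 2, among them Atoh1 with 10 and 127 counts and Neurod1 with 141 and 1056, and the list summed to 28.3 and 39.5 TPM. Of 5 hindbrain Hox genes, 4 were, with Hoxd3 and Hoxb8 at 0 counts in replicate 1, and the sums were 0.590 and 6.94 TPM.

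Choroid plexus genes summed to 17.9 TPM in replicate 1 and 170 in replicate 2, with 4 of 6 over 2-fold higher in replicate 2, and Ttr, which encodes transthyretin, alone stood at 14.4 and 163 TPM. The other 5 choroid plexus genes summed to 3.44 and 7.61 TPM. Skeletal muscle genes summed to 4.28 and 7.52 TPM, with 3 of 7 over 2-fold higher in replicate 2, among them Ckm with 3 and 195 counts. Of 12 forebrain genes, 2 were over 2-fold higher in replicate 2 and 1 in replicate 1, and the list summed to 36.4 and 33.95 TPM. The midbrain and neuron lists had none past 2-fold. All of their genes but Foxa2 had summed counts of 1000 or more, where only 0.622% of all genes passed. The part of neighbouring tissues in the values of the 9 genes, Calb1 and Pvalb included, was not tested. More cells of a type cannot be told apart from more RNA per cell in whole tissue.

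The partners of these proteins were broadly present. All 14 calmodulin-dependent kinase and calcineurin genes reached 1 TPM in both libraries. Their median was 16.01 TPM. Between the libraries none passed 2-fold, against 0.622% of all genes whose counts summed to 1000 or more, as theirs did. They were led by Camk2b at 41.5 and 41.2 TPM, the calcineurin genes Ppp3cb at 47.3 and 26.8 and Ppp3ca at 36.6 and 28.6, Camk2d at 30.9 and 21.9 and Ppp3r1, the regulatory subunit of calcineurin and itself an EF-hand protein, at 28.9 and 22.9. Camk2a, the kinase subunit that dominates in the adult forebrain, was the lowest of the list by mean, at 3.85 and 3.27 TPM.

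All 5 genes listed for calmodulin storage were detected. None passed 2-fold, against 0.622% of all genes whose counts summed to 1000 or more, as these did. The products of Gap43, Nrgn and Pcp4 bind calmodulin at low calcium, and that of Marcks releases it on phosphorylation. Gap43, of growth cones, stood at 235 and 160.4 TPM, Marcks at 114 and 89.5 and Pcp4 at 76.6 and 60.8. Nrgn, a postsynaptic store of calmodulin, stood at 7.61 and 10.7, and Pcp4l1, a relative of Pcp4, at 3.61 and 4.05. Calm3 stood above each of them in both libraries. Of 10 other calmodulin targets 8 were detected, led by Camta1 at 37.8 and 28.1 TPM, the cyclase Adcy1 at 29.8 and 26.1, Pde1b at 23.4 and 21.3, Adcy8 at 6.4 and 5.49 and Nos1 at 5.47 and 3.27. Itpka stood below 1 TPM in both, with 11 and 136 counts, and was the only gene of that list past 2-fold.

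All 8 partner genes of the neuronal calcium sensors were detected, with none past 2-fold. All but Drd2 had summed counts of 1000 or more, where 0.622% of all genes passed. Kcnd2, a channel that Kcnip subunits join, stood at 20.4 and 17.5 TPM and Kcnd3 at 14.4 and 14.7. Ric8a, which binds Ncs1, stood at 23.6 and 13.4 TPM over all its transcripts and at 8.21 and 7.99 on protein-coding ones. Pi4kb, a lipid kinase that Ncs1 activates, stood at 12.99 and 10.1. The enzymes that attach the fatty acid, Nmt2 and Nmt1, stood at 19.4 and 14.7 and at 12.0 and 8.89 TPM. Each of the 4 sensors stood above all 8 of these partners in both libraries.

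Of 9 calcium pump and exchanger genes 8 were detected, with a median of 14.4 TPM and none past 2-fold. All but Atp2a3 had summed counts of 1000 or more, where 0.622% of all genes passed. Atp2a2, the pump of the endoplasmic reticulum, led at 50.9 and 41.3 TPM, followed by the exchanger Slc8a1 at 36.2 and 28.2, Atp2b2 at 18.4 and 18.2, Atp2b1 at 20.3 and 14.6 and Slc8a2 at 13.9 and 14.8. Atp2a3 stood below 1 TPM in both, at 0.780 and 0.460. Over the 8 lists of calcium sensors, buffers, partners and pumps, which include the 9 genes themselves, 61 of 78 genes were detected, against the 53.8% of protein-coding genes given above.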

How the data were processed

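Per the labels, RNA over 200 nucleotides was depleted of ribosomal RNA and sequenced as read pairs from stranded libraries. Per the deposited notes, the authors quantified genes and transcripts from transcriptome alignments on mm10 with GENCODE M4; the aligner and program used are not given in the sources. They deposited estimated counts (expected counts), TPM, FPKM and the percent of each gene on each transcript. Symbols, coordinates and transcript sequences came from GENCODE M21 on the same assembly, which matched 42462 of 43346 identifiers; 97 control rows were left out of gene counts. Proteins were translated from M21 coding regions, since no protein table was used here.

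Counts were rounded, scaled by TMM (edgeR 4.0.16, prior count 0.5) over genes whose counts summed to 10 or more, and called at 2-fold. The ratios were tried on simulated counts in which only genes counted more highly than Pvalb were changed. That trial therefore did not cover changes at counts as low as those of Pvalb. Pair ratios used TPM + 0.1. DESeq2 1.42.0 size factors, spike-ins and other choices were tried as alternatives. Named were all 9 genes, every gene of the sensor, calmodulin and buffer lists except 1 not reported here, the 5 highest of other pathway lists with those below 1 TPM in both libraries, and markers bearing on a difference; Camk2a and Nmt1 were named after their values were seen. No genes of like pattern are given, since 2 libraries of 1 group hold no pattern. Members and lists were chosen with earlier results of these data known. Intervals and floors (3 counts) cover counting error only.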

Additional observations from a re-analysis of the deposited data

How the results depend on the processing

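No paired analysis was possible because the study has 1 group. The median level of the 9 genes was 205 TPM when TPM was rescaled over protein-coding genes alone, which by construction raises every level, and ranged from 37.3 to 49.2 TPM with either replicate left out. The rise was large because most TPM lay outside protein-coding genes: Calm3 went from 391 and 366 TPM to 1751 and 1854. On the rescaled values Pvalb stood at 0.582 and 3.29 TPM and Calb1 at 21.1 and 31.0. The counts of detected genes were not repeated on them. Of 54 alternative levels of single genes, 10 moved by more than the SD between the libraries: 9 under that rescaling, and Calb1 at 2.25 TPM on coding transcripts. Most of the 54 could not have come out otherwise. With either replicate left out, the level is that of the other library, which always lies within the SD of the mean. Rescaled FPKM repeats TPM, as with Calb2 at 22.7 on both. The outcome was open only for coding transcripts and the deposited posterior mean of TPM, where only Calb1 on coding transcripts moved. The count of called pairs was 27 under other pseudocounts, counts per kilobase and coding transcripts, and 27 to 28 with either replicate left out. Genes past 2-fold between the libraries numbered 5199 with no filter on low counts, 823 with a summed count of at least 100, and 5125 at 1.5-fold. Of the 9 genes, 0 passed 2-fold with a summed count of at least 100, since Pvalb was then not tested, and 2 at 1.5-fold, Pvalb and Calb1. DESeq2 size factors, library totals, spike-ins and TPM each left 1 of the 9 genes past 2-fold. By estimated counts the leading form was coding in 9 of 9 genes, against 8 by TPM. Of 28 genes on the lists added below, 12 reached 5 TPM in both libraries. At 7 and 62 counts, depth limits the ratio of Pvalb.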

Other observations

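Calcium-binding genes of other families were listed after the values above were seen. All 13 genes of calcium-binding proteins of the secretory pathway reached 1 TPM in both libraries. Their median was 20.9 TPM, and none passed 2-fold between the libraries. All but Nucb2 had summed counts of 1000 or more, where 0.622% of all genes passed. Calr, which encodes the main calcium store protein of the endoplasmic reticulum, led at 92.9 TPM in replicate 1 and 67.7 in replicate 2, above Hpca in both, followed by Canx at 58.7 and 41.7, Hspa5 at 45.7 and 35.6, Hsp90b1 at 36.9 and 23.0 and Calu at 30.3 and 23.0. Stim1, the sensor of calcium in that store, stood at 4.91 and 4.64 TPM.

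The S100 family, small EF-hand proteins, had 6 of 15 genes at 1 TPM or more in both libraries, against 53.8% of protein-coding genes. S100a10 led at 15.9 and 12.6 TPM, then S100a16 at 8.21 and 14.04, S100a1 at 5.86 and 3.00 and S100a6 at 3.12 and 2.60. S100b, an astrocyte gene in the adult, stood at 1.90 and 2.37 TPM. S100a9, a neutrophil gene, had 21 counts in replicate 1 and 1 in replicate 2, and S100a3 had 0 and 36. No S100 gene reached the level of Calb2 in either library.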
